A study of Drosophila melanogaster with 15 samples.

Results

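Trained trithorax knockdown (trx-KD) flies and trained control flies were each compared with their naïve counterparts, and the difference between those 2 training responses was tested for every gene in nuclear RNA of mushroom body nuclei. The comparison uses all 15 libraries of the series and all 9749 genes that passed a filter on low counts, of 17559 genes counted. For each gene the response to training is the log2 fold change of trained over naïve flies of 1 genotype, and the interaction is the response in trx-KD minus the response in controls, so that a positive interaction means a higher value in trained trx-KD than the other 3 groups would give. A gene was sorted as smaller in trx-KD when both responses had the same sign and the trx-KD response was the lesser in size, as larger when it was the greater, and as opposite when the signs differed.

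The libraries came from trained trx-KD flies (4 libraries), naïve trx-KD flies (3), trained control flies (4) and naïve control flies (4). All 4 groups carried the driver R14H06-Gal4, UAS-Dicer2 and UAS-unc84::GFP, a nuclear tag by which nuclei were pulled from homogenates of frozen heads with anti-GFP beads. The trx-KD flies also carried the knockdown construct P{GD4502}v37715, so that Dicer2 and the tag were shared by the controls. Each library stands for 1 pool of 50 to 60 flies. The labels name the treatment as trained or naïve and give no paradigm and no time after training, and the age and sex of the flies are not given in the sources used here. Where nothing says that pools of one group were reared apart, p-values measure the spread between these pools.

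Trithorax belongs to the family of enzymes that methylate histone H3 at lysine 4, a mark of active promoters and enhancers, and is known for keeping genes active that Polycomb proteins would silence. Kenyon cells, the neurons of the mushroom body, hold olfactory and courtship memories in flies, and the formation of lasting memory needs new transcription and translation there. Transcription factor genes such as Hr38 and stripe (sr) are switched on by activity in fly neurons, as Nr4a and Egr genes are in mammals.

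Counts on genes ran between 14154045 and 45976562 per library, with a median of 24250938. The targeted gene trx (FBgn0003862; chromosome arm 3R, 14263358 to 14286903, BDGP6.54) was at 499, 527, 549.9 and 507 CPM (counts scaled to a common library total) in trained trx-KD, 546, 539 and 525 in naïve trx-KD, 562, 569, 593 and 593 in trained control and 566, 574, 569.8 and 609 in naïve control libraries. All 7 trx-KD libraries were lower than the 8 control libraries, by a small margin, and the interaction of trx was -0.04 (95% interval -0.19 to 0.10). Kenyon cell markers such as mub (4712 CPM or more in every library) were abundant, and so were photoreceptor markers, with ninaE, the main rhodopsin, at 4736 to 11128 CPM. Transcripts of photoreceptors, glia, fat body, blood cells and muscle were thus present in these preparations, and their share in any one result was not tested. In bulk libraries of this kind fewer cells of a type and less RNA per cell cannot be told apart. Trained trx-KD replicates 2 and 3 and naïve control replicate 4 stood apart from the other libraries on the first 3 principal components.

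No gene passed the test of the interaction. With Benjamini-Hochberg adjusted values of the edgeR quasi-likelihood test, 0 of 9749 genes (0%) had an adjusted p under 0.1, and the smallest adjusted p was 0.363. An unadjusted p under 0.05 was reached by 1055 genes, 10.8% of those tested, of which 559 (5.73%) had a positive and 496 (5.09%) a negative interaction. Scaling by library size alone turned that split round, with 41.4% of such genes positive against 53.0% after the trimmed mean of M values (TMM) scaling used here. Of the 1055 genes, 947 responded in opposite directions, 54 had a smaller and 54 a larger response in trx-KD. Over all genes tested these classes held 4902, 2249 and 2598 genes. A low p for a difference favours responses of opposite sign, so the 947 are a description. In 45 of them both responses had an unadjusted p under 0.05.

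The count of 0 turned on 1 library. Without trained trx-KD replicate 2, 189 of 9716 genes (1.95%) passed, 157 with a positive interaction (1.62%) and 32 with a negative one (0.329%), and without any other single library the count stayed at 0. All 189 had the same sign of interaction with all libraries in, and 180 of them an unadjusted p under 0.05 there. Both fits share every other library, so this agreement is a description and not separate support for the calls. Of the 189, 174 were opposite, 9 smaller and 6 larger in trx-KD, and 151 of the 157 positive ones had a lower estimate in trained than in naïve controls. Choosing genes by the interaction favours opposite signs, so these classes are a description too. Another tool, DESeq2, called 24 genes on all 15 libraries (18 positive, 6 negative, 0.251% of those it tested), and 21 of these were among the 189. Its calls rest on the same counts, so that overlap is not separate support either. The fit of limma with sample quality weights called 0. For the genes below that passed without trained trx-KD replicate 2, the adjusted p of that fit is given, and none of them passed with any other single library left out. Where that library was the lowest of its group, as for Lsp2 and CG13315, leaving it out raises the trx-KD response. These adjusted p-values are therefore a description.

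**Figure D1:**
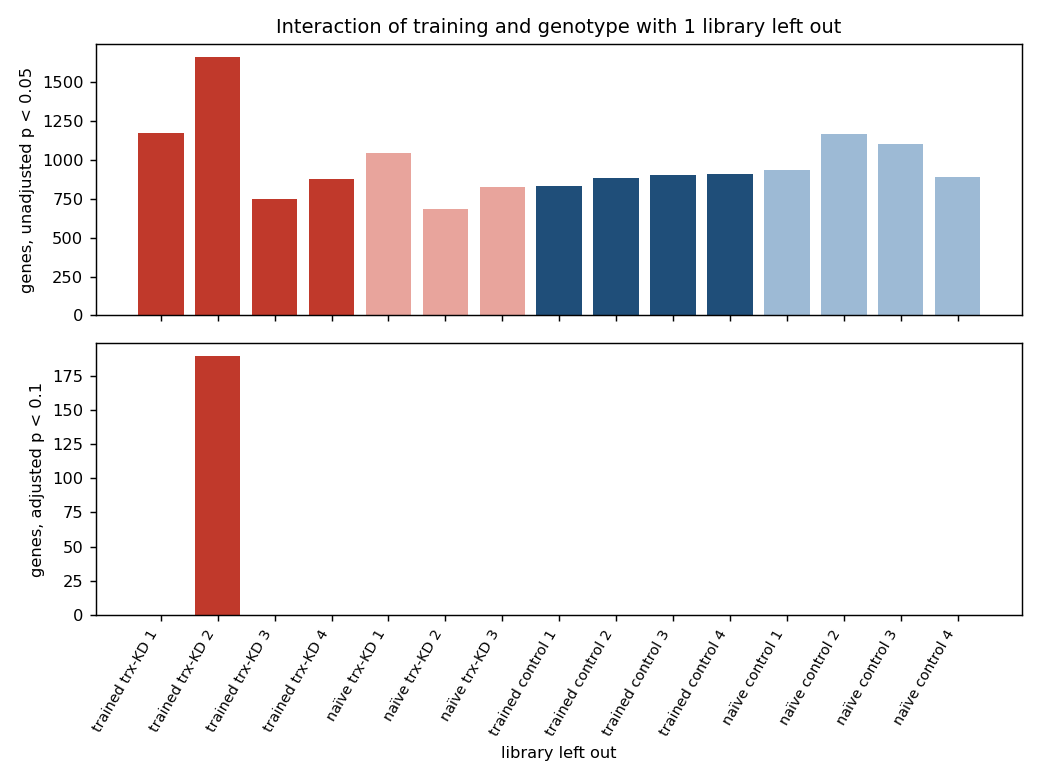
Number of genes with an unadjusted p under 0.05 (top) and an adjusted p under 0.1 (bottom) for the interaction of training and genotype when each library in turn was left out; bar colour gives the group of that library. The lower panel holds a single bar, 189 genes without trained trx-KD replicate 2, and the upper panel runs between 687 and 1663 genes.

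The interaction was measured less precisely than either response. The median standard error over all genes was 0.19 for the interaction, against 0.14 for the response in trx-KD and 0.13 for that in controls. Among the 6021 genes averaging 3 or more in log2 CPM, the 95% interval of the interaction extended a median of 0.29 to each side of the estimate. It lay within 0.5 of 0 on both sides for 3776 of these genes (62.7%) and within 1 of 0 for 5794 (96.2%). Differences between the responses of more than 2-fold were therefore outside the interval for most well expressed genes, while smaller ones often lay within it. These intervals hold for 1 gene at a time and are not adjusted for the number of genes. Estimates above 2-fold, such as those of Lsp2 and CG4962, also did not pass the adjusted threshold.

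Each response taken alone passed for some genes in the same fit. In trx-KD, 125 genes (1.28%) reached that threshold in the edgeR quasi-likelihood test, 83 higher (0.851%) and 42 lower (0.431%) in trained flies. In controls, 293 genes (3.01%) passed, 107 higher (1.1%) and 186 lower (1.91%). The higher number in controls is not by itself a difference between the genotypes, since the difference was the interaction and passed for no gene. The trx-KD count was 507 without trained trx-KD replicate 2, 396 without trained trx-KD replicate 1, 338 without naïve control replicate 4, and 40 to 70 without any one of the remaining 5 trx-KD libraries. The control count ran between 191, without naïve control replicate 1, and 390. With library-size scaling alone, 53 of 112 genes in trx-KD were higher. At an adjusted p under 0.05, 71 genes passed in trx-KD (0.728%; 0.482% higher and 0.246% lower) and 207 in controls (2.12%; 0.687% higher and 1.44% lower).

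The genes that passed in both genotypes all moved the same way. They numbered 68, which is 54.4% of those called in trx-KD and 23.2% of those called in controls, and 36 were higher and 32 lower after training. The response was larger in trx-KD for 37 and smaller for 31, and 3 had an unadjusted interaction p under 0.05 (4.41%, against 10.8% of all genes). Since both calls chose these genes, their shared direction is a description. The 95% interval of the interaction stayed within 0.5 of 0 for 38 of the 68 and within 1 of 0 for 63.

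**Figure D2:**
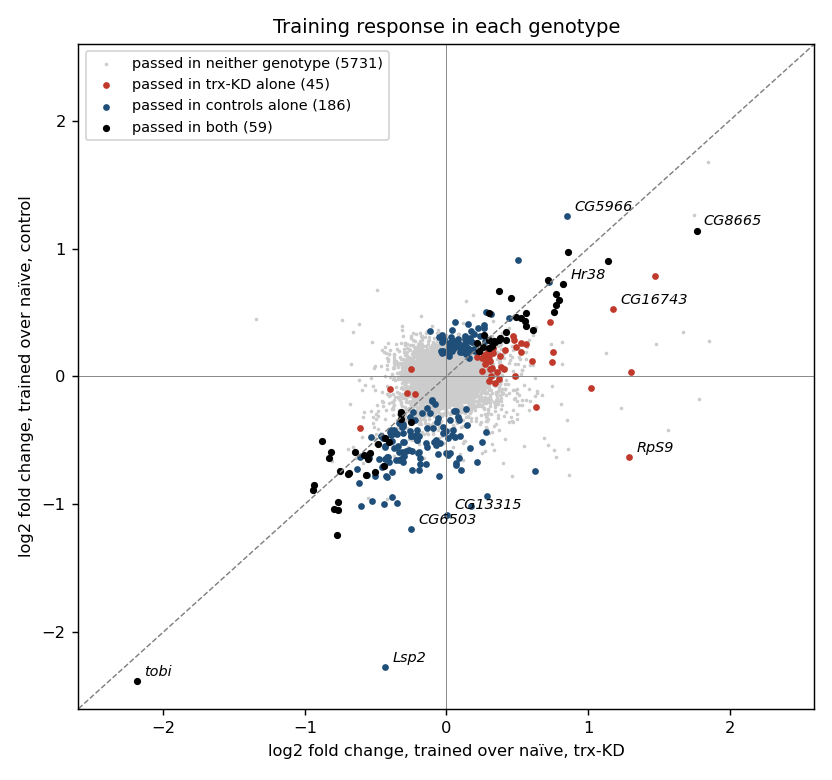
Log2 fold change of trained over naïve flies in trx-KD (x axis) against that in controls (y axis) for the 6021 genes averaging 3 or more in log2 CPM; the dashed line marks equal responses. Black points (59 genes) passed in both genotypes, red points (45) in trx-KD alone, blue points (186) in controls alone, and grey points (5731) in neither; the black points lie near the line, with tobi at -2.19 and -2.38 at one end and CG8665 at 1.77 and 1.14 at the other.

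Among shared decreases, tobi (FBgn0261575; chromosome arm 3R, 25344761 to 25346921), which encodes an alpha-glucosidase controlled by brain insulin signals, was the largest. It was at 49.4, 27.02, 27.4 and 27.2 CPM in trained trx-KD and 143, 141 and 166 in naïve trx-KD, against 40.00, 36.4, 40.6 and 31.5 in trained and 179, 206, 199 and 192 in naïve controls. Trained libraries of both genotypes lay far below all naïve ones, with a gap between the groups and trained trx-KD replicate 1 the highest of the trained. The log2 fold change was -2.19 in trx-KD (adjusted p = 2.88e-06 from the edgeR quasi-likelihood test) and -2.38 in controls (adjusted p = 3.97e-07), and the interaction was 0.20 (95% interval -0.28 to 0.67).

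Other genes that fell in both genotypes included Hpd, an enzyme of tyrosine breakdown (log2 fold change -0.88 in trx-KD and -0.51 in controls), bgm, an acyl-CoA synthetase of very long chain fatty acids (-0.94 and -0.85), the cytochrome P450 gene Cyp6g1 (-0.94 and -0.89) and CG7135 (-0.83 and -0.64). Hpd was the one of these with an unadjusted interaction p under 0.05 (interaction -0.37, 95% interval -0.71 to -0.04, adjusted p = 0.438 from the edgeR quasi-likelihood test), its response being larger in trx-KD. Kr-h1, a transcription factor of the juvenile hormone response, fell by nearly the same amount in both, with a log2 fold change of -0.75 in trx-KD and -0.74 in controls and an interaction of -0.01 (95% interval -0.31 to 0.28). It was named after its values were seen.

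CG8665 had the largest rise in trx-KD among called genes averaging 3 or more in log2 CPM. It was at 23.7, 10.2, 13.4 and 10.2 CPM in trained and 3.83, 3.26 and 5.74 CPM in naïve trx-KD libraries, against 8.57, 13.04, 13.6 and 13.96 in trained and 5.38, 7, 4.75 and 5.41 in naïve controls. Trained and naïve libraries did not overlap in either genotype, and trained trx-KD replicate 1 was above all others. Its log2 fold change was 1.77 in trx-KD and 1.14 in controls, with an interaction of 0.63 (95% interval -0.17 to 1.43). Nep7, a gene of the neprilysin peptidase family, rose by 1.14 in trx-KD and 0.90 in controls on the log2 scale, and Tig, which encodes the extracellular matrix protein Tiggrin, by 0.86 and 0.98. The interaction was 0.24 (95% interval -0.31 to 0.79) for Nep7 and -0.12 (95% interval -0.59 to 0.36) for Tig. The Tig call in trx-KD was lost without naïve trx-KD replicate 3 (adjusted p = 0.153 from the edgeR quasi-likelihood test). CG5966 and MFS9 had log2 fold changes of 0.85 and 0.50 in trx-KD that did not pass, and rose by 1.25 and 0.91 in controls, and CG16743 rose in trx-KD, by 1.18, with 0.52 in controls that did not pass. Their interactions were -0.40 (95% interval -1.05 to 0.25), -0.41 (95% interval -0.90 to 0.08) and 0.65 (95% interval 0.11 to 1.20), none of which passed.

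The activity-regulated genes were the group in which a training response is best known, and 8 of the 9 listed could be tested. Of these, 3 rose in each genotype (Hr38, sr and CG14186), 4 interactions were positive and 4 negative, and the median interaction was -0.0028, against -0.01 over all genes. No member had an unadjusted interaction p under 0.05. The median interaction ran between -0.09 without trained trx-KD replicate 4 and 0.06 without naïve trx-KD replicate 3. The median response was 0.14 in trx-KD and 0.23 in controls.

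Hr38 (FBgn0014859; chromosome arm 2L, 20683462 to 20714588) was at 377, 351, 377 and 376 CPM in trained trx-KD and 223, 185 and 218 in naïve trx-KD, against 368, 363, 329 and 465 in trained and 221, 225, 265 and 216 in naïve controls. Every trained library lay above every naïve one, and the levels of the genotypes overlapped within each treatment. Hr38 rose by 0.82 in trx-KD (adjusted p = 0.000805) and 0.72 in controls (adjusted p = 0.000575) on the log2 scale, both from the edgeR quasi-likelihood test, with an interaction of 0.11 (95% interval -0.19 to 0.40). The stripe gene sr, of the Egr family of zinc finger factors, was at 231, 246, 272 and 268 CPM in trained trx-KD and 166, 137 and 147 in naïve trx-KD, against 187, 188, 188 and 204 in trained and 143, 109.5, 145 and 143 in naïve controls. All 4 trained trx-KD libraries exceeded all 4 trained controls, and trained and naïve flies did not overlap. The rise was 0.76 in trx-KD and 0.50 in controls, and the interaction was 0.26 (95% interval -0.01 to 0.53) with an unadjusted p of 0.0599 (adjusted p = 0.474 from the edgeR quasi-likelihood test).

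CG14186 was at 186, 195, 175 and 182 CPM in trained trx-KD and 129.8, 135 and 138 in naïve trx-KD, against 203, 197, 188 and 206 in trained and 131, 137, 142 and 109.5 in naïve controls. Trained and naïve libraries did not overlap in either genotype, and the interaction was -0.15 (95% interval -0.37 to 0.06). Arc1, a homolog of the synaptic capsid protein Arc, had the lowest interaction of the group, -0.35 (95% interval -0.82 to 0.13). Its levels were 65.5, 70.4, 65.1 and 64.98 CPM in trained trx-KD and 67.8, 63.3 and 74.2 in naïve trx-KD, against 120.4, 104, 98.6 and 109.6 in trained and 89.7, 96.1, 113 and 52.3 in naïve controls. The trx-KD libraries of both treatments overlapped, and the low naïve control was replicate 4, one of the libraries that stood apart. Without that library the interaction was nearest to 0 of the 15 leave-one-out values, at -0.16.

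The remaining members did not pass in either genotype. Their interactions were 0.14 for kay and -0.08 for Jra, the fly Fos and Jun genes, 0.07 for Arc2 and -0.10 for dysf, a transcription factor gene. CrebA, a relative of CREB with a role in the secretory pathway, rose by 0.61 in trx-KD and 0.36 in controls, with an interaction of 0.25 (95% interval -0.06 to 0.56). The call in controls was lost in 9 of 15 fits with 1 library left out. Among the 4 genes of the CREB list, 0 had an unadjusted interaction p under 0.05, and nej, which encodes the coactivator CBP, had an interaction of 0.02 (95% interval -0.10 to 0.15).

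**Figure D3:**
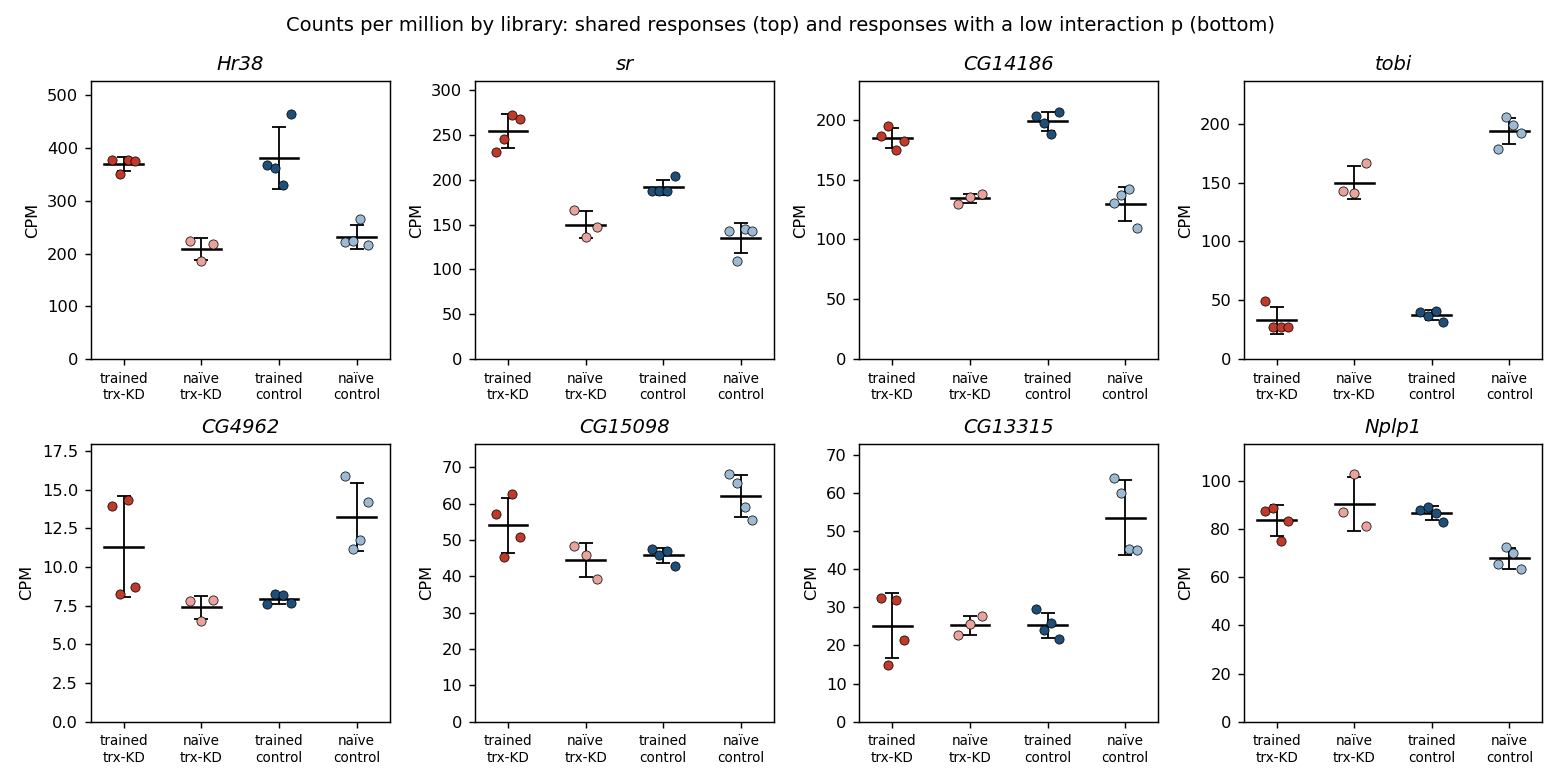
CPM of 8 genes in each library (points), with the group mean (line) and SD (bar), in trained trx-KD, naïve trx-KD, trained control and naïve control libraries from left to right; n is 4, 3, 4 and 4. In the top row Hr38, sr and CG14186 are higher and tobi is lower in trained flies of both genotypes; in the bottom row the naïve controls stand apart from the other 3 groups in CG4962, CG15098 and CG13315 (higher) and Nplp1 (lower), with some trained trx-KD libraries of CG4962 and CG15098 among them.

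Of the 350 genes called in either genotype, 128 (36.6%) had an unadjusted interaction p under 0.05, against 10.8% of all genes. Of the 186 genes lower in trained controls, 145 had a smaller, 11 a larger and 30 an opposite response in trx-KD, with a median log2 fold change of -0.31 in trx-KD and -0.61 in controls. An unadjusted interaction p under 0.05 was found for 68 of them (36.6%, the share over all called genes), 67 positive. For the 107 genes higher in trained controls, the classes held 67, 29 and 11 genes, the medians were 0.20 in trx-KD and 0.30 in controls, and 25 had such a p, all negative. For the 83 genes higher in trained trx-KD, 9 had a smaller, 65 a larger and 9 an opposite response, with medians of 0.48 in trx-KD and 0.23 in controls, and 30 had such a p, 29 positive. For the 42 genes lower in trained trx-KD, 22 had a smaller, 15 a larger and 5 an opposite response, with medians of -0.68 in trx-KD and -0.62 in controls, and 8 had such a p, 7 negative. These genes were chosen on a response that is itself part of the interaction, so these values are a description.

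Lsp2 (FBgn0002565; chromosome arm 3L, 12129393 to 12131869), a storage protein gene of the fat body, was at 365, 171, 451 and 303 CPM in trained trx-KD and 465, 339.5 and 503 in naïve trx-KD, against 143, 124, 184 and 121 in trained and 446, 461, 576 and 1284 in naïve controls. The trx-KD treatments overlapped, the control treatments did not, and naïve control replicate 4 was far above the others. The log2 fold change was -0.43 in trx-KD (adjusted p = 0.577 from the edgeR quasi-likelihood test) and -2.27 in controls, where Lsp2 fell (adjusted p = 0.00128), and the interaction was 1.84 (95% interval 0.87 to 2.81) with an unadjusted p of 0.000944 and an adjusted p of 0.363. The adjusted p was 0.0396 without trained trx-KD replicate 2, and leaving out 1 library moved the interaction between 1.36 and 2.06.

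CG13315 (FBgn0040827; chromosome arm 3L, 9096877 to 9097494) was at 32.5, 14.9, 31.8 and 21.3 CPM in trained trx-KD and 22.7, 25.6 and 27.7 in naïve trx-KD, against 29.5, 23.99, 25.8 and 21.7 in trained and 63.8, 59.8, 45.4 and 45.04 in naïve controls. Only the naïve controls were high, and the other 3 groups overlapped. The log2 fold change was 0.00 in trx-KD and -1.08 in controls, with an interaction of 1.09 (95% interval 0.49 to 1.68) (adjusted p = 0.363 from the edgeR quasi-likelihood test, or 0.0147 without trained trx-KD replicate 2). CG6503 showed the same order, at 459.6, 236, 343 and 288 CPM in trained trx-KD and 395, 330.4 and 459 in naïve trx-KD, against 333, 345, 297 and 295 in trained and 648, 563, 664 and 1029 in naïve controls. Every naïve control exceeded every other library, and the interaction was 0.94, 95% interval 0.36 to 1.53 (adjusted p = 0.064 without trained trx-KD replicate 2). The alpha-amylase gene Amy-d, whose reads may be shared with its near-identical copy Amy-p, fell by 0.77 in trx-KD and 1.24 in controls, with an interaction of 0.47 (95% interval -0.05 to 0.99); its trx-KD call was lost without any one of trained replicate 3 and naïve replicates 1, 2 and 3.

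Octbeta3R, a receptor for octopamine, rose in controls and did not pass in trx-KD. It was at 235, 257, 234 and 239.9 CPM in trained trx-KD and 235, 236 and 228 in naïve trx-KD, against 225, 217, 214 and 207 in trained and 181, 175, 177 and 178 in naïve controls. All 7 trx-KD libraries and the trained controls lay above the naïve controls. The log2 fold change was 0.05 in trx-KD and 0.28 in controls (adjusted p = 0.00406 from the edgeR quasi-likelihood test), and the interaction was -0.23 (95% interval -0.37 to -0.08) with an adjusted p of 0.363, or 0.0958 without trained trx-KD replicate 2. Nplp1, a neuropeptide precursor gene, followed this pattern with 87.4, 88.7, 74.8 and 83.1 CPM in trained trx-KD, 86.8, 103 and 81.1 in naïve trx-KD, 87.6, 89.2, 86.5 and 82.6 in trained controls and 65.4, 72.6, 70.1 and 63.1 in naïve controls. The naïve controls were the lowest group, without overlap, and the interaction was -0.46, 95% interval -0.70 to -0.23 (adjusted p = 0.08 without trained trx-KD replicate 2).

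Opposite responses in which both genotypes had an unadjusted p under 0.05 were found for 45 of the 9749 genes tested. Of these, 30 were higher in trained trx-KD and lower in trained controls, and 15 the reverse. Among all genes, 8.19% were higher and 6.19% lower in trained trx-KD at such a p, against 5.8% higher and 6.25% lower in trained controls. Unrelated responses in the 2 genotypes would also give opposite genes, and an excess over their number was not tested. The smallest interaction p of all genes belonged to CG4962 (FBgn0036597; chromosome arm 3L, 16294711 to 16295547), at 13.96, 8.29, 14.3 and 8.73 CPM in trained trx-KD and 7.8, 6.52 and 7.86 in naïve trx-KD, against 7.62, 8.29, 8.23 and 7.66 in trained and 15.9, 11.2, 11.8 and 14.2 in naïve controls. The naïve controls exceeded the trained controls without overlap, and the trained trx-KD libraries exceeded the naïve ones without overlap. The interaction was 1.36 (95% interval 0.83 to 1.89) with an unadjusted p of 4.67e-05 (adjusted p = 0.363 from the edgeR quasi-likelihood test), and the adjusted p was 0.00502 without trained trx-KD replicate 2. The trx-KD response did not pass (log2 fold change 0.62, adjusted p = 0.146), and the fall in controls did (log2 fold change -0.74, adjusted p = 0.0301, lost without naïve control replicate 1).

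CG15098 was at 57.1, 45.3, 62.7 and 50.8 CPM in trained trx-KD and 48.3, 45.8 and 39.3 in naïve trx-KD, against 47.5, 45.9, 46.8 and 42.9 in trained and 68.1, 65.8, 58.9 and 55.6 in naïve controls. The naïve controls exceeded the trained controls without overlap, 2 of the trained trx-KD libraries lay within the naïve control range, and the trx-KD treatments overlapped. Its interaction was 0.72, 95% interval 0.41 to 1.02 (adjusted p = 0.0107 without trained trx-KD replicate 2). Dpck, the enzyme of the last step of coenzyme A synthesis, had 9.86, 9.67, 10.7 and 10.8 CPM in trained trx-KD and 6.96, 8.29 and 7.82 in naïve trx-KD, against 6.15, 7.29, 5.29 and 5.79 in trained and 7.36, 7.81, 7.4 and 8.48 in naïve controls, with an interaction of 0.76, 95% interval 0.41 to 1.11 (adjusted p = 0.0507 without trained trx-KD replicate 2). Trained and naïve libraries did not overlap in either genotype, and neither response passed. CG13594 went the other way, at 87.2, 85.2, 79.2 and 86.8 CPM in trained trx-KD and 97.5, 91.6 and 92.7 in naïve trx-KD, against 83.9, 82.4, 81.2 and 75.8 in trained and 71.96, 73.1, 71.1 and 72.1 in naïve controls, with no overlap of treatments in either genotype. Its interaction was -0.32, 95% interval -0.48 to -0.15 (adjusted p = 0.0958 without trained trx-KD replicate 2), and neither response passed. The remaining gene of the 5 with the lowest interaction p among these 45, FBgn0085773, has no symbol in the annotation used and was at or under 1.24 CPM in every library (adjusted p = 0.0924 without trained trx-KD replicate 2).

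Immune-induced peptides were the only list of 10 or more tested genes in which every interaction had the same sign. They comprise the Bomanins, Daisho peptides and antimicrobial peptides that the Toll and Imd pathways switch on, mainly in the fat body. All 30 members tested had a positive interaction, 12 of them with an unadjusted p under 0.05 (5.73% of all genes were positive with such a p), and the median interaction was 1.14, against -0.01 over all genes. The median response was 0.94 in trx-KD and -0.14 in controls. Short Bomanin genes are neighbours of similar sequence, so reads may be shared among them and they are not independent.

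The summed level of the 30 genes was 1863, 567, 2352 and 1843 CPM in trained trx-KD and 1073, 895 and 602 in naïve trx-KD, against 866, 1446, 1207 and 1284 in trained and 2044, 1215, 1289 and 1288 in naïve controls. Trained trx-KD replicate 2 was the lowest of all 15 libraries while the other 3 trained trx-KD libraries exceeded every naïve trx-KD and every trained control library. Naïve control replicate 1 was the high one among controls. Without trained trx-KD replicate 2, 10 members passed the interaction at an adjusted p under 0.1, all positive, against 0 with it. Over all genes in that fit, 157 of 9716 (1.62%) passed with a positive interaction. Leaving out the lowest library raises the trx-KD response of these genes, so the count of 10 is a description. The list median ran between 0.94 and 1.39 with 1 library left out, and the count at an unadjusted p under 0.05 was 23 without that library and 8 without trained trx-KD replicate 3.

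BomS6 (FBgn0040733; chromosome arm 2R, 18390353 to 18390629) had the lowest interaction p of the list, at 72.9, 31.4, 74.1 and 49.1 CPM in trained trx-KD and 49.4, 50.1 and 52.3 in naïve trx-KD, against 40.2, 48.3, 37.5 and 42.2 in trained and 90.5, 74.7, 83.4 and 91.7 in naïve controls. Every naïve control lay above every other library, by a narrow margin over 2 trained trx-KD libraries, and trained trx-KD spanned the naïve trx-KD values. BomS6 fell by 1.02 on the log2 scale in controls (adjusted p = 0.00709 from the edgeR quasi-likelihood test), and the interaction was 1.19, 95% interval 0.62 to 1.77 (adjusted p = 0.363, or 0.00129 without trained trx-KD replicate 2). Dso1, a Daisho peptide gene, was at 196, 67.7, 205 and 167 CPM in trained trx-KD and 92.2, 98.6 and 99.9 in naïve trx-KD, against 119, 152, 123 and 118 in trained and 226, 178, 170.3 and 168 in naïve controls, with an interaction of 1.25, 95% interval 0.55 to 1.96 (adjusted p = 0.000372 without trained trx-KD replicate 2). Trained trx-KD replicate 2 was the lowest of all libraries and the other 3 trained trx-KD libraries lay above naïve trx-KD and trained controls.

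The Bomanin genes BomS1 and BomS5 were among the largest increases in trx-KD. BomS5 was at 27.96, 10.99, 40.7 and 39.8 CPM in trained trx-KD and 14.9, 11.5 and 9.57 in naïve trx-KD, against 17.1, 21.1, 20.6 and 18.7 in trained and 20.98, 14.6, 16.01 and 23.8 in naïve controls. Trained trx-KD replicate 2 lay within the naïve trx-KD range and the other 3 above every other library. BomS5 rose by 1.31 in trx-KD (adjusted p = 0.0694 from the edgeR quasi-likelihood test) and BomS1 by 1.48 (adjusted p = 0.0641), calls that were lost in 5 and 4 of the 15 fits with 1 library left out. Their log2 fold changes in controls were 0.04 and 0.79, and their interactions 1.27 (95% interval 0.39 to 2.15) and 0.69 (95% interval -0.28 to 1.65). The interaction of BomS5 had an adjusted p of 0.0115 without trained trx-KD replicate 2.

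**Figure D4:**
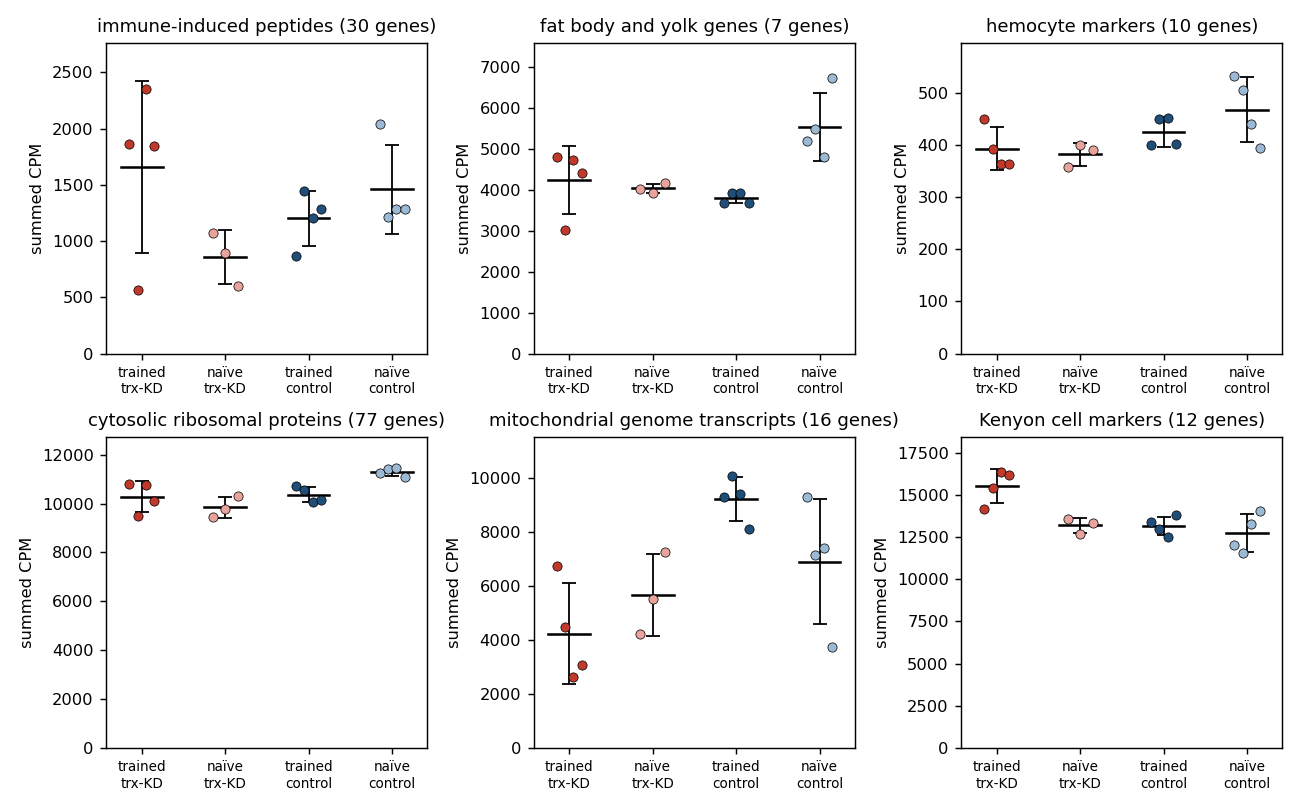
Summed CPM of the tested members of 6 gene lists in each library (points), with group mean (line) and SD (bar), in trained trx-KD, naïve trx-KD, trained control and naïve control libraries from left to right. Immune-induced peptides spread between 567 and 2352 CPM within trained trx-KD, ribosomal protein sums are highest in naïve controls, fat body sums have their highest mean there, and Kenyon cell marker sums are highest in trained trx-KD.

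Interactions of fat body and blood cell genes were mostly positive. All 7 fat body and yolk genes tested had a positive interaction, 3 with an unadjusted p under 0.05 (42.9%, against 10.8% of all genes). The median was 1.84, a value that fell to 0.09 without trained trx-KD replicate 4. That library alone held yolk protein transcripts at a high level, Yp1 at 0.532, 0.12, 0.483 and 142 CPM in the trained trx-KD libraries and at or under 1.13 CPM in all other groups. The yolk protein genes were named after their values were seen. The lipid carrier gene apolpp was at 3986, 2522, 3912 and 3367 CPM in trained trx-KD and 3268, 3269.6 and 3355 in naïve trx-KD, against 3156, 3392, 3339.8 and 3175 in trained and 4416, 4671, 3913 and 5118 in naïve controls. Naïve controls were high except that replicate 3 lay among the trained trx-KD libraries, and the interaction was 0.54, 95% interval 0.20 to 0.87 (adjusted p = 0.0104 without trained trx-KD replicate 2). Summed over the list, levels were 4805, 3031, 4742 and 4410.3 CPM in trained trx-KD, 4029.8, 3931 and 4159 in naïve trx-KD, 3692, 3912, 3929 and 3689 in trained controls and 5188, 5485, 4801 and 6724 in naïve controls.

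Of 10 hemocyte markers tested, 9 had a positive interaction, 3 with an unadjusted p under 0.05 (30%, against 10.8% of all genes), with a median of 0.33. With library-size scaling 7 of the 10 were positive, and with 1 library left out the count at such a p ran between 1 and 5. Hml, the clotting protein hemolectin of blood cells, was at 24.1, 19.2, 21.5 and 25.04 CPM in trained trx-KD and 13.7, 13.3 and 16.6 in naïve trx-KD, against 17.7, 17.9, 16.5 and 16.5 in trained and 26.3, 20.7, 16.1 and 18.1 in naïve controls. Trained trx-KD exceeded naïve trx-KD without overlap, and the control treatments overlapped. Hml rose in trx-KD (log2 fold change 0.63, adjusted p = 0.0532 from the edgeR quasi-likelihood test, a call lost in 3 of 15 fits with 1 library left out), and its interaction was 0.87, 95% interval 0.46 to 1.28 (adjusted p = 0.0396 without trained trx-KD replicate 2). The summed hemocyte level overlapped between trained and naïve trx-KD, at 451, 393, 364 and 363 CPM in trained trx-KD, 357, 399.6 and 389.9 in naïve trx-KD, 399, 450.0, 451 and 402 in trained controls and 533, 504, 439.8 and 394 in naïve controls.

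Cytosolic ribosomal protein genes, which build the subunits of the translating ribosome, held the largest share of low interaction p-values among lists of more than 30 genes. Of 77 tested, 51 had a positive interaction (48 with library-size scaling), and 33 positive and 1 negative had an unadjusted p under 0.05, against 10.8% of all genes in both directions. The median interaction was 0.21, with a median response of 0.07 in trx-KD and -0.14 in controls, and stayed between 0.17 and 0.25 with any 1 library left out. Members whose signs differed between genotypes numbered 55. Without trained trx-KD replicate 2, 23 of the 77 passed the interaction, all positive, against 1.62% of all genes positive in that fit. That replicate had the lowest sum of these genes among trained trx-KD libraries, so leaving it out raises their trx-KD response.

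Summed over the 77 genes, levels were 10815, 9482, 10749 and 10116 CPM in trained trx-KD and 9450.5, 9788 and 10299 in naïve trx-KD, against 10704, 10571, 10069.6 and 10148 in trained and 11252, 11402, 11471 and 11088 in naïve controls. Naïve controls exceeded all other libraries and the trx-KD treatments overlapped. Photoreceptor markers summed to 12562, 10373, 10794 and 9814 CPM in trained trx-KD, 9699, 16302 and 10719.5 in naïve trx-KD, 11720.0, 11486, 13358 and 10629.6 in trained controls and 13419, 15312, 11447 and 18328 in naïve controls, and their part in the ribosomal protein values was not tested.

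RpS27A was at 94.8, 87.8, 102 and 90.02 CPM in trained trx-KD and 82.6, 80.01 and 92.6 in naïve trx-KD, against 95.2, 103, 91.9 and 101 in trained and 112, 113, 116 and 125 in naïve controls. Naïve controls were highest without overlap, the trx-KD treatments overlapped, and the interaction was 0.39, 95% interval 0.19 to 0.60 (adjusted p = 0.0564 without trained trx-KD replicate 2). RpL11 was at 99.4, 86.3, 104 and 95.8 CPM in trained trx-KD and 82.2, 79.9 and 89.6 in naïve trx-KD, against 106, 103, 97.7 and 96.6 in trained and 112, 113, 110.3 and 117 in naïve controls, with the same order and an interaction of 0.37, 95% interval 0.17 to 0.56 (adjusted p = 0.0253 without trained trx-KD replicate 2). RpS9 differed in kind, at 38.6, 36.4, 136 and 73.8 CPM in trained trx-KD and 24.2, 27.4 and 35.9 in naïve trx-KD, against 27.9, 24.1, 28.8 and 23.5 in trained and 48.8, 38.98, 34.2 and 39.6 in naïve controls. Its rise in trx-KD (log2 fold change 1.29, adjusted p = 0.0985 from the edgeR quasi-likelihood test) had its highest values in replicates 3 and 4 and passed in 3 of 15 fits with 1 library left out, and its interaction was 1.92, 95% interval 0.97 to 2.87 (adjusted p = 0.0243 without trained trx-KD replicate 2).

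The share of genes with an unadjusted interaction p under 0.05 was lower in the following lists than in cytosolic ribosomal proteins (44.2%). It was 16.3% for initiation and elongation factors, 11.6% for mitochondrial ribosomal proteins and 16.7% for proteasome subunits, against 10.8% of all genes. Of 43 initiation and elongation factor genes, 26 had a positive interaction, 6 positive and 1 negative with an unadjusted p under 0.05, and the median was 0.08 (0.04 with library-size scaling). With 1 library left out the median ran between 0.04, without naïve trx-KD replicate 1, and 0.11, and the positive count between 3 and 8, the highest without trained trx-KD replicate 2. The RNA helicase gene eIF4A had an interaction of 0.36 (95% interval 0.11 to 0.61). Mitochondrial ribosomal proteins had a median of 0.02 (-0.03 with library-size scaling and -0.008 without naïve control replicate 1), with 5 positive and 3 negative of 69 at such a p. Of 30 proteasome subunit genes, 5 positive and 0 negative had such a p, among them Rpt6 with an interaction of 2.15, 95% interval 0.92 to 3.38 (adjusted p = 0.0408 without trained trx-KD replicate 2) at 0.977 to 10.5 CPM. The proteasome median of 0.06 ran between 0.04 and 0.13 with 1 library left out, and the positive count between 3 and 8.

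Nuclear-encoded respiratory chain genes and transcripts of the mitochondrial genome had median interactions of opposite sign. Of 65 nuclear-encoded genes tested, 48 had a positive interaction (42 with library-size scaling), with a median of 0.12. An unadjusted p under 0.05 was reached by 14 positive and 0 negative (21.5%, against 10.8% of all genes). The median was 0.07 without naïve trx-KD replicate 1 and at most 0.17, without trained trx-KD replicate 2, and the positive count ran between 10 and 22, the highest without that same library. COX8, a subunit of cytochrome c oxidase, was at 49.3, 42.8, 70.97 and 65.2 CPM in trained trx-KD and 36.5, 39.2 and 42.8 in naïve trx-KD, against 43.4, 48.8, 43.5 and 49.6 in trained and 50.5, 48.6, 51.2 and 60.5 in naïve controls. Trained trx-KD replicates 3 and 4 were the highest libraries, control treatments overlapped, and the interaction was 0.72, 95% interval 0.32 to 1.11 (adjusted p = 0.0248 without trained trx-KD replicate 2).

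Of 16 transcripts of the mitochondrial genome tested, 14 had a negative interaction, 5 of them with an unadjusted p under 0.05 (5.09% of all genes were negative with such a p), with a median of -0.74 and medians of -0.54 in trx-KD and 0.28 in controls. Their summed level was 6745, 4485, 2614 and 3069.5 CPM in trained trx-KD and 4212, 5511 and 7231 in naïve trx-KD, against 9294, 10077, 9391 and 8093 in trained and 9281, 7134, 7386 and 3735 in naïve controls. Trained controls were high, trained trx-KD replicates 3 and 4 and naïve control replicate 4 low, and each genotype's treatments overlapped. In a preparation of nuclei such transcripts come from material outside the nucleus. Leaving out naïve control replicate 4 moved the median to -0.48 and the negative count to 2, and leaving out trained trx-KD replicate 3 moved them to -0.52 and 2. mt:ND2, a subunit of complex I, was at 6.14, 6.6, 1.23 and 2.74 CPM in trained trx-KD and 5.76, 6.96 and 8.8 in naïve trx-KD, against 9.87, 8.56, 8.43 and 9.58 in trained and 4.23, 4.51, 7.09 and 1.5 in naïve controls, with an interaction of -1.84 (95% interval -3.09 to -0.60).

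**Figure D5:**
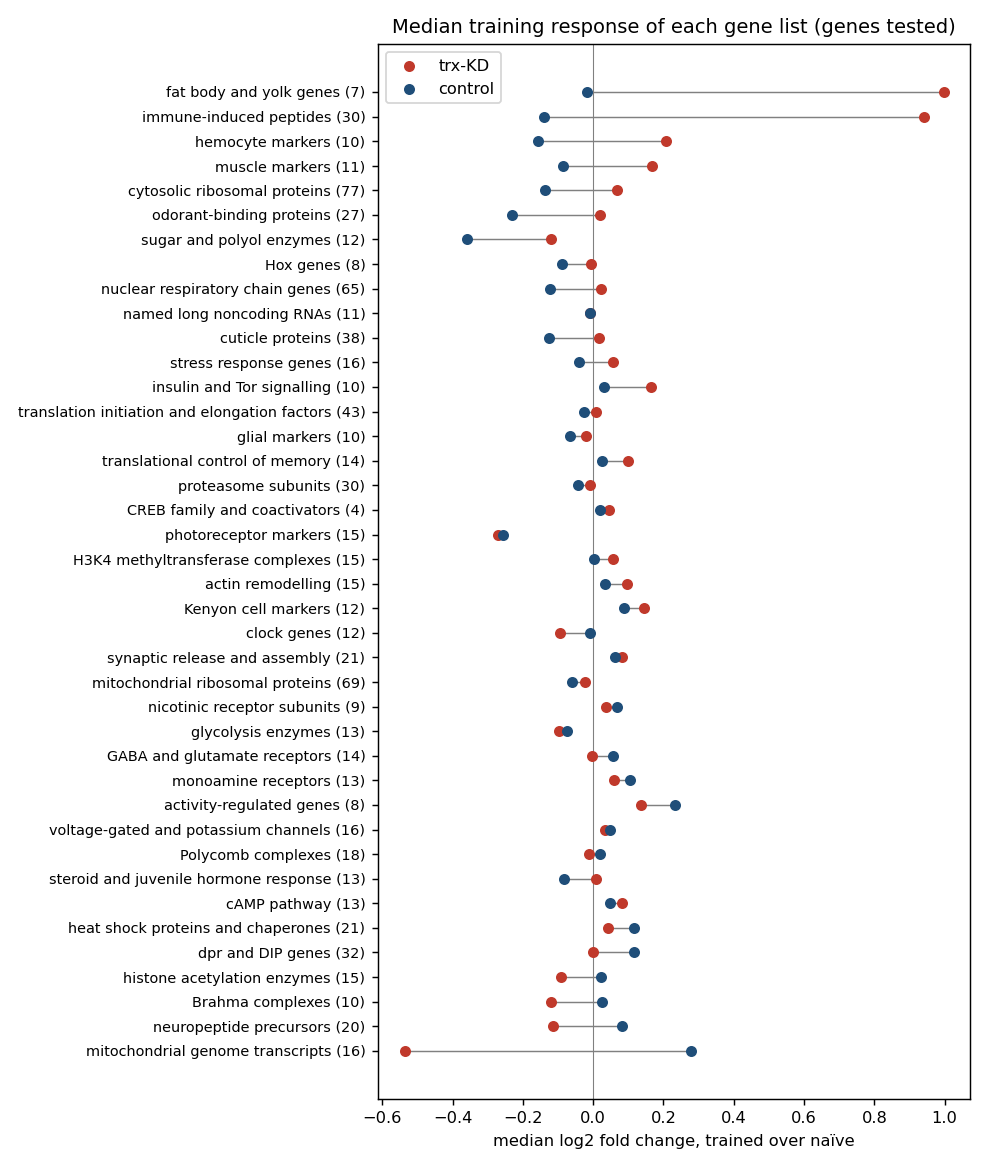
Median log2 fold change of trained over naïve flies in trx-KD (red) and control (blue) for the tested members of 40 gene lists, ordered by median interaction, with the number of genes tested in brackets. Fat body and yolk genes and immune-induced peptides lie farthest apart with trx-KD above, mitochondrial genome transcripts with trx-KD below, and most neuronal lists differ by less than 0.1.

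Odorant-binding protein genes, expressed in support cells of the antenna, had interactions in both directions, with a median of 0.18. Of 27 members tested, 15 were positive and 12 negative, 4 in each direction with an unadjusted p under 0.05 (29.6% together, against 10.8% of all genes). Without trained trx-KD replicate 2 the positive count was 9, and 2 members passed, both positive, against 1.62% of all genes positive in that fit. With 1 library left out the median ran between 0.06 and 0.30. The largest positive interaction was that of Obp56e, 3.13, 95% interval 1.38 to 4.87, at or under 1.65 CPM in every library (adjusted p = 0.363 from the edgeR quasi-likelihood test, 0.0973 without trained trx-KD replicate 2 and 0.0963 by DESeq2). Obp83a, one of the negative ones, was at 0.123, 0.3, 0.483 and 0.127 CPM in trained trx-KD and 22.7, 35.2 and 0.489 in naïve trx-KD, against 12.6, 69.7, 7.61 and 19.2 in trained and 2.64, 22.7, 30.4 and 0.192 in naïve controls. Levels were near 0 in all trained trx-KD libraries and also in naïve trx-KD replicate 3 and naïve control replicate 4, so the values within naïve groups differed as widely as those between groups. Obp83b, its neighbour, showed the same libraries near 0.

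Most lists of neuronal signalling genes had medians close to that of all genes (-0.01). Neuropeptide precursors (-0.18) and dpr and DIP genes (-0.08) lay further below it. Of the Kenyon cell markers, 16.7% had an unadjusted interaction p under 0.05, against 10.8% of all genes. Kenyon cell markers had a median interaction of 0.02 (-0.02 with library-size scaling, and -0.01 to 0.09 with 1 library left out), with 2 of 12 positive at an unadjusted p under 0.05, mamo (0.28, 95% interval 0.03 to 0.52) and mub (0.26, 95% interval 0.02 to 0.50), and 4 rather than 9 of 12 positive with library-size scaling. Their summed level was 14188, 15395, 16354 and 16215 CPM in trained trx-KD and 13572, 12679 and 13362 in naïve trx-KD, against 13396, 12969, 12532 and 13794 in trained and 12022, 11592, 13275 and 14082 in naïve controls. All trained trx-KD libraries exceeded all other libraries. The part of this in the interaction of other genes was not tested.

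In the cAMP pathway, on which olfactory memory in flies depends, 2 of 13 genes (15.4%) had an unadjusted interaction p under 0.05, both positive. Over all genes the share was 10.8%. The list median was -0.01 (-0.02 to 0.0083 with 1 library left out). Pka-C1, the catalytic subunit of protein kinase A, was at 1980.3, 2209.6, 2423 and 2374 CPM in trained trx-KD and 1819, 1651 and 1800.1 in naïve trx-KD, against 1767, 1780.0, 1657 and 1940.2 in trained and 1652, 1586, 1772 and 1953 in naïve controls. The trained trx-KD libraries were the highest and did not overlap any other group. Pka-C1 rose by 0.35 in trx-KD (adjusted p = 0.0544 from the edgeR quasi-likelihood test, lost in 5 of 15 fits with 1 library left out), and its interaction was 0.32 (95% interval 0.09 to 0.55). The regulatory subunit Pka-R1 had an interaction of 0.30 (95% interval 0.05 to 0.55).

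Monoamine receptors had a median of 0.00038 with 2 of 13 negative at an unadjusted p under 0.05 (Octbeta3R and 5-HT2B), nicotinic receptor subunits 0.0064 with 0 of 9, and GABA and glutamate receptors 0.00065 with 2 of 14, both negative (Nmdar1 at -0.43, 95% interval -0.75 to -0.11 and GABA-B-R2 at -0.24, 95% interval -0.47 to -0.01). With library-size scaling these medians were negative, at -0.04 for monoamine receptors, -0.04 for nicotinic subunits and -0.05 for GABA and glutamate receptors. The share at an unadjusted p under 0.05 was 15.4% for monoamine and 14.3% for GABA and glutamate receptors. It was 9.52% for genes of synaptic release and assembly, against 10.8% of all genes. Without naïve control replicate 4, one of the libraries that stood apart, the median was -0.09 for nicotinic subunits, -0.04 for GABA and glutamate receptors, -0.04 for voltage-gated and potassium channels and -0.02 for genes of synaptic release and assembly. Voltage-gated and potassium channels had a median of -0.0039 with 1 of 16 negative, and genes of synaptic release and assembly 0.02 (-0.03 with library-size scaling) with 2 of 21 negative, Rop, the fly Munc18 (-0.42, 95% interval -0.74 to -0.10, adjusted p = 0.064 without trained trx-KD replicate 2), and Liprin-alpha, an active zone scaffold (-0.28, 95% interval -0.51 to -0.05, adjusted p = 0.0958 without trained trx-KD replicate 2). The cell surface genes of the dpr and DIP families had 25 of 32 interactions below 0, 4 of them at such a p (12.5% of the list), and a median of -0.08. With 1 library left out that median ran between -0.14, without naïve control replicate 4, and -0.05, and the negative count between 0 and 6. Neuropeptide precursors had a median of -0.18, with 1 positive and 3 negative of 20 (20%). Leaving out 1 library moved it between -0.26, without trained control replicate 4, and -0.10, without naïve control replicate 3, and the negative count between 2 and 5. FMRFa fell in trx-KD (log2 fold change -0.82, adjusted p = 0.0694 from the edgeR quasi-likelihood test, lost in 7 of 15 fits with 1 library left out), was at 2.28 to 7.93 CPM, and had an interaction of -0.91 (95% interval -1.47 to -0.35).

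Shares of low interaction p-values in the chromatin lists were near or below the 10.8% of all genes. Among 15 members of the H3K4 methyltransferase complexes, 2 (13.3%) had an unadjusted interaction p under 0.05, in opposite directions. The methyltransferase gene trr, a relative of trx, was at 105, 119.7, 91.6 and 97.7 CPM in trained trx-KD and 109.7, 122 and 121 in naïve trx-KD, against 114, 100.2, 109 and 102 in trained and 89.04, 94.04, 100.4 and 87.9 in naïve controls. Naïve control replicate 3 lay just above the lowest trained control, the trx-KD treatments overlapped, and the interaction was -0.38, 95% interval -0.62 to -0.14 (adjusted p = 0.0605 without trained trx-KD replicate 2). Ptip, a subunit of the trr complex, was at 246, 237, 293 and 272 CPM in trained trx-KD and 211, 198 and 197 in naïve trx-KD, against 203, 189.6, 209 and 215 in trained and 199, 180.5, 199.8 and 246 in naïve controls, with trained above naïve trx-KD without overlap and an interaction of 0.39 (95% interval 0.13 to 0.66). Polycomb and Brahma complex genes had 0 of 18 and 0 of 10 at such a p, Hox genes 0 of 8, and histone acetylation enzymes 1 of 15, Elp3 (-0.56, 95% interval -1.03 to -0.10).

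Among stress and nutrient genes, REPTOR-BP, the partner of a transcription factor held back by Tor signalling, was at 21.8, 19.03, 32.5 and 27.5 CPM in trained trx-KD and 21.3, 21.2 and 21.2 in naïve trx-KD, against 20.8, 19.2, 19.4 and 18.2 in trained and 32.96, 25.5, 22.3 and 29.9 in naïve controls. The control treatments did not overlap, and the interaction was 0.76, 95% interval 0.32 to 1.20 (adjusted p = 0.0494 without trained trx-KD replicate 2). Stress response genes had 3 positive and 1 negative of 16 (25%) at an unadjusted p under 0.05, against 10.8% of all genes. Insulin and Tor signalling had 2 positive of 10 (20%), glycolysis enzymes 0 of 13 and sugar and polyol enzymes 0 of 12. Chaperones had 1 of 21, and Hsp83, the fly Hsp90, rose by 0.30 in trx-KD and 0.50 in controls with an interaction of -0.20 (95% interval -0.42 to 0.02). The trx-KD call of Hsp83 was lost in 11 of 15 fits with 1 library left out.

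In the remaining lists, shares of members with an unadjusted interaction p under 0.05 lay on both sides of the 10.8% of all genes. They were highest for named long noncoding RNAs (27.3%), actin regulators (20%) and hormone response genes (15.4%). Glial markers had 1 of 10, photoreceptor markers 0 of 15, muscle markers 0 of 11, cuticle proteins 4 of 38, clock genes 1 of 12, memory-related translational regulators 1 of 14, hormone response genes 2 of 13, actin regulators 3 of 15 and named long noncoding RNAs 3 of 11. Genes that overlap annotated genes on the other strand, among them Hr38, kay, trx, tobi, Lsp2, RpS9, Dpck, CG13594, CG8665, Hpd, Octbeta3R, apolpp, mub and trr, are uncertain, because it is not stated whether reads were counted by strand.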

How the data were processed

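Nuclear RNA of mushroom body nuclei was measured in 15 libraries of 4 groups, taken from the labels. The authors deposited raw read counts per gene; their processing notes name STAR 2.5.3a, HTSeq 0.7.1 and the genome build dm6, and the strand setting of counting is not given in the sources used here. The row of the Unc84 tag (0.437 to 0.681% of counts) was left out. Symbols and coordinates came from BDGP6.54. Genes were kept by edgeR's filterByExpr (minimum count 10, minimum total 15) and scaled by TMM. They were tested by edgeR 4.0.16's quasi-likelihood test in R 4.3.3, with all 4 groups in 1 fit and Benjamini-Hochberg adjustment. A prior count of 2 entered the log2 CPM values only and was not set in the fit or its fold changes. An adjusted p under 0.1 was called, and 0.05 was also counted. CPM values use the same scaling. DESeq2 1.42.0, limma 3.58.1, other scalings, no filter, a replicate block and leaving out each library were tried. The fit was tested on simulated data.

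Named were trx, the largest interactions with an adjusted p under 0.1 (of which there were 0), the activity-regulated genes, the 5 opposite genes with the lowest interaction p among those with an unadjusted p under 0.05 in both genotypes, the 5 largest called increases and decreases in each genotype averaging 3 or more in log2 CPM, and up to 3 members per list with the lowest interaction p. Members, lists and rules were chosen with earlier results of these data known. The 21 pairs of libraries within groups differed beyond sampling noise, so each was counted separately. Depth was 14154045 counts or more per library, and each error comes from the spread between pools.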

Additional observations from a re-analysis of the deposited data

Results flagged for a closer look

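Within-group outliers were looked for in 114 groups of 4 libraries, over 38 genes and list sums, by the gap of the highest or lowest library to its nearest neighbour. Chance marks about 1 in 20 such groups, and 9 were marked. Among trained trx-KD libraries, Hr38 was low in replicate 2, at 351 CPM against 376 to 377 in the others. Arc1 was high in that replicate, at 70.4 CPM against 65.0 to 65.5. In trained trx-KD replicate 1, tobi was high, at 49.4 CPM against 27.0 to 27.4. Among trained controls, sr was high in replicate 4 (204 CPM against 187 to 188), Dso1 was high in replicate 2 (152 CPM against 118 to 123) and CG8665 was low in replicate 1 (8.57 CPM against 13.04 to 13.96). Among naïve controls, sr was low in replicate 2 (109.5 CPM against 143 to 145), Lsp2 was high in replicate 4 (1284.5 CPM against 446 to 576), and the immune-induced peptides summed to 2044 CPM in replicate 1 against 1215 to 1289 in the others.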

How the results depend on the processing

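The count of 0 for the interaction of training and genotype held under library-size scaling, without a filter and at an adjusted p under 0.05, and was 24 by DESeq2, 0 to 189 with 1 library left out and 148 (122 positive) without naïve control replicate 4 and trained trx-KD replicate 2 together, a choice made after seeing the data. For the training response in trx-KD and the training response in controls, DESeq2 called 359 and 440 genes. Library-size scaling gave 112 and 279, no filter 121 and 267, an adjusted p under 0.05 gave 71 and 207, a fit of only each genotype's own libraries 50 and 405, and leaving out both named libraries 1133 and 487. Leaving out 1 library gave 40 to 507 in trx-KD and 191 to 390 in controls.

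Same-numbered libraries of different groups deviated from their group means with correlations of -0.415 to 0.312, against -0.442 to 0.461 for other pairs, so the numbers were not taken to pair the samples. With a replicate block, the interaction of training and genotype passed for 0 genes (834 with an unadjusted p under 0.05), the training response in trx-KD for 63 and the training response in controls for 241.

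Leaving out 1 library moved the interaction across 0 for dysf (-0.23 to 0.013), bgm (-0.21 to 0.036), Cyp6g1 (-0.24 to 0.092), Tig (-0.22 to 0.019) and tobi (-0.071 to 0.30). As a difference of responses in CPM, bgm was at 0.359 and Cyp6g1 at 6.44. The causes were not tested. With 3 or 4 pools a group, differences between responses under about 0.29 on the log2 scale lie within the median unadjusted interval of well expressed genes. Larger ones also did not pass after adjustment.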
